A study of Mus musculus with 16 samples.

Results

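The circadian clock of the mouse ventricular myocyte was followed through 10 of its genes, namely Per1, Per2, Per3, Cry1, Cry2, Clock, Nr1d1, Nr1d2, Dbp and Tef. They were taken by gene symbol from a deposited table of 35682 genes, all 10 were found, and all 10 passed the low-count filter that left 10945 genes for testing. The table held RNA counts of adult ventricular myocytes from 16 mice, 1 library per mouse, with 8 wild-type (WT) littermates and 8 mice of the B3AR-Tg line, which is named for the beta-3 adrenergic receptor. Both genotypes had been operated on 9 weeks before, by transverse aortic constriction (TAC), a narrowing of the aorta that loads the left ventricle. The groups therefore share the surgery and differ in genotype, and no mouse without surgery was in the comparison. The labels do not state the promoter or species of the transgene, the age or sex of the mice, or the time of day at which hearts were taken, a value on which clock transcripts depend. Cells had been released by Langendorff perfusion and kept on plates for 1 hour before RNA was extracted, per the labels.

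The clock is a feedback loop of transcription. CLOCK and BMAL1 (gene Arntl) bind E-box sequences together and switch on the Per and Cry genes, whose proteins return to the nucleus and block CLOCK and BMAL1. The same activators switch on Nr1d1 and Nr1d2, which encode the REV-ERB repressors of Arntl, and Dbp and Tef, which encode factors of the PAR bZIP family that bind D-box sequences in other clock-controlled genes. In the heart the loop runs within the myocyte itself and gives daily rhythm to genes of metabolism and of electrical recovery.

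Library totals were between 5985335 and 14365864 counts. Mouse Adrb3 held 0 to 4 counts in WT and 0 to 3 in B3AR-Tg libraries, at the limit of detection, so it does not check the genotype labels; Adgrb3, an adhesion receptor gene, held 0 to 3 counts in WT and 247 to 723 in B3AR-Tg. All 8 cardiomyocyte markers were counted in every library, at a summed level of 64192 to 88735 CPM in WT and 70976 to 108090 CPM in B3AR-Tg, where CPM is the count scaled to a common library size (the usual CPM) with TMM factors. Of 6 tested fibroblast markers 4 fell (summed level 37.8 to 119.3 CPM in WT, 11.0 to 46.5 CPM in B3AR-Tg), and of 7 endothelial markers 3 fell (106.6 to 146.9 against 46.8 to 160.3 CPM). Summed levels of 6 mural markers were 87.2 to 161.8 against 47.4 to 142.3 CPM, and of 8 leukocyte markers, of which 2 could be tested, 2.85 to 7.55 against 0 to 3.82 CPM. Cd3e was at 0 counts in all 16 libraries, Cd79a in 14 and Tcf21 in 13. In such bulk samples fewer cells of a type and less RNA per cell cannot be told apart.

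RefSeq promoter windows on GRCm38.p6, from 250 bases before to 50 bases after a gene's start, are shown for the 4 members that varied together between animals (Per3, Nr1d2, Dbp and Tef) and for Arntl, which varied against them. Windows were matched by symbol and found for 9 of the 10 members, all but Per2. They are written 5′ to 3′ along the gene's strand, and capitals mark the motifs searched on both strands, none of which overlap here. These were the E-box (CACGTG), the D-box (TTATGTAA or TTACGTAA), a core of the ROR and REV-ERB element (TAGGTCA or TGGGTCA) and the cAMP response element (TGACGTCA).
Per3 (chr4:151044616-151044915, minus strand): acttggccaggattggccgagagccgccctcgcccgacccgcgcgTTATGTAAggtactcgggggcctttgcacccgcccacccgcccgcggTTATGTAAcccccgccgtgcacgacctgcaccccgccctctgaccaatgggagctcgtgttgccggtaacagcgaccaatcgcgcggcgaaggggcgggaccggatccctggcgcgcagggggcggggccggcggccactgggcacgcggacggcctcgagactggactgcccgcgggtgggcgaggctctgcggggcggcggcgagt
Nr1d2 (chr14:18239057-18239356, minus strand): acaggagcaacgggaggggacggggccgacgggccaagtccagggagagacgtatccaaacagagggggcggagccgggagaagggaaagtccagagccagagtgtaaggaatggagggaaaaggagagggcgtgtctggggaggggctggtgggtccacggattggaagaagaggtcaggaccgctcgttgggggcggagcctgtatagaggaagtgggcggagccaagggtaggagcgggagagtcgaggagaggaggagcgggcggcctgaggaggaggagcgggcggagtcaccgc
Dbp (chr7:45704997-45705296, plus strand): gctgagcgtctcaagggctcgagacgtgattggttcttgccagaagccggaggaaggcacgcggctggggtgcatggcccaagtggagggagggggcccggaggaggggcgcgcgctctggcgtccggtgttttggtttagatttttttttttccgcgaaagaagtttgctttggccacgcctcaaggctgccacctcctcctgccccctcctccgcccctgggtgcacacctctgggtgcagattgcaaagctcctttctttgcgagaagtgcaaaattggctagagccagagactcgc
Tef (chr15:81811164-81811463, plus strand, 1 of its 2 windows): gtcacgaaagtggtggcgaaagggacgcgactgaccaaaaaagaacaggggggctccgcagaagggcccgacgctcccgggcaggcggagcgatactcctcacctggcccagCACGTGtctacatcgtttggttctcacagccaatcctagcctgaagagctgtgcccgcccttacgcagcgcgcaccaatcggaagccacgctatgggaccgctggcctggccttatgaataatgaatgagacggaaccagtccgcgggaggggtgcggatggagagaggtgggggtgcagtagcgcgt
Arntl (chr7:113207261-113207560, plus strand, 1 of its 2 windows): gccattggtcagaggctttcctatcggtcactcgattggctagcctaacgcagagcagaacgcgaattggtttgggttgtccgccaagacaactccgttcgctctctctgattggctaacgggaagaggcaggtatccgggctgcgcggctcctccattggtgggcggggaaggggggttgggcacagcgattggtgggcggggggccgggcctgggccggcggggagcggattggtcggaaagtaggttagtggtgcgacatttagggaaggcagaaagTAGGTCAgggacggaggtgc

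Per3 held 2 D-boxes, beginning 205 and 158 bases before the start, and was the only 1 of the 9 members with a D-box match, against 1.06% of the 32851 RefSeq windows of this length. An E-box was found for 3 members, Per1 (166 bases before 1 of its starts), Cry1 (60 bases before) and Tef (138 bases before the start of the window shown, and 127 before its other start), against 7.15% of all windows. Counts of members and shares of windows are unlike measures, as Per1, Clock and Tef each had more than 1 window. The ROR and REV-ERB core occurred in the window of Arntl shown, at base 31 with the start counted as 1, in 0 of the 9 members and in 6.45% of all windows. The cAMP response element occurred in 0 of the 9 members and in 1.79% of windows. A match is a stretch of letters and not a bound site, and the windows of Dbp and Nr1d2 held no match to these letters in these 300 bases.

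Between genotypes 1 of the 10 clock genes passed the test, edgeR's quasi-likelihood test with adjustment over all 10945 genes. The gene was Nr1d2, higher in B3AR-Tg. Of all genes tested, 4.91% passed, 2.03% higher and 2.88% lower in B3AR-Tg, so 1 of 10 is not set apart from that background. No member was lower at an adjusted p under 0.05 by edgeR, DESeq2 or limma voom, and 0 were lower at an unadjusted p under 0.05 by any of the 3 tools. Without adjustment 3 members, Nr1d2, Dbp and Per3, had an edgeR p under 0.05, all higher in B3AR-Tg, against 19.3% of all genes tested. The members' median log2 fold change was 0.12, with a median of 0.01 over all genes, and the groups overlapped for every member, where 0.448% of all genes had groups that did not. Taken without sign, the median log2 fold change was 0.14 for the members and 0.15 over all genes.

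**Figure D1:**
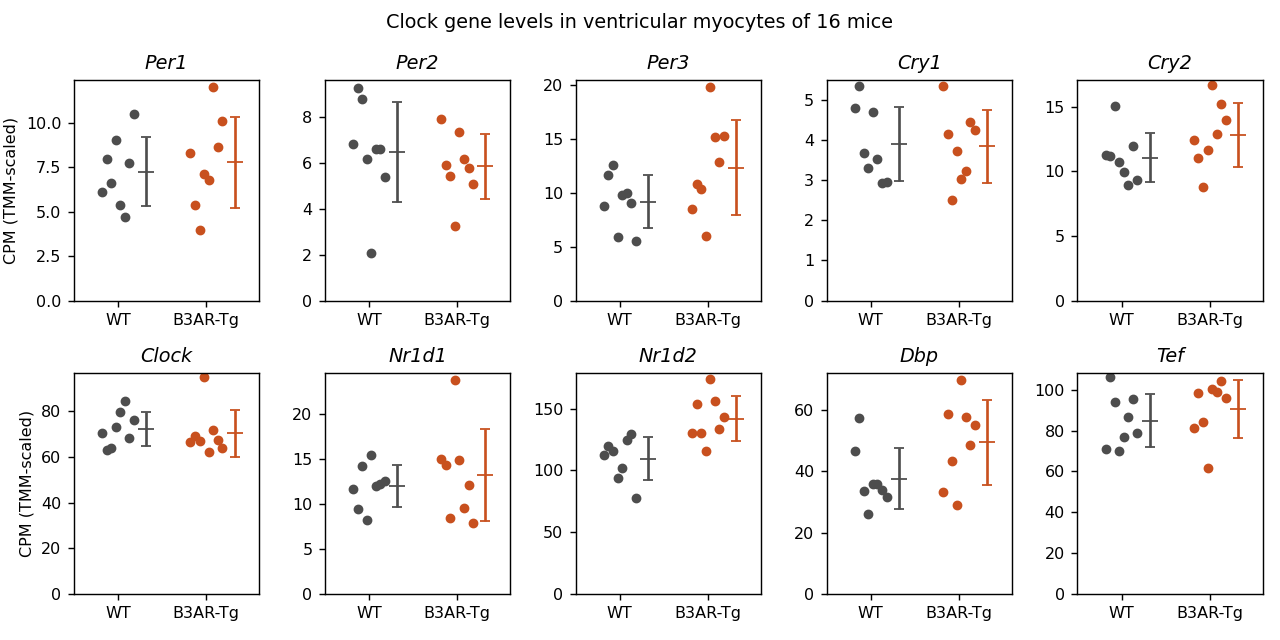
Level of each of the 10 clock genes in CPM (vertical axis, from 0) in 8 WT and 8 B3AR-Tg mice, 1 point per mouse, with the mean and SD beside the points. For Nr1d2, 7 of the 8 B3AR-Tg points lie above the highest WT point, while the points of the other genes overlap more widely.

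Of the 2 REV-ERB genes, Nr1d2 encodes REV-ERB beta. Its lowest, median and highest WT levels were 77.9, 114.1 and 130.0 CPM, and those in B3AR-Tg were 115.7, 138.3 and 174.3 CPM. All 8 B3AR-Tg mice were above the WT median and 7 above the highest WT mouse; the exception was B3AR-Tg replicate 4. The means were 109.6 ± 17.3 CPM (SD, n = 8) in WT and 142.1 ± 18.6 CPM (SD, n = 8) in B3AR-Tg. The log2 fold change was 0.38 with a standard error of 0.10 and a 95% interval of 0.16 to 0.59 (edgeR adjusted p = 0.0376). The call was narrow. It was lost on leaving out WT replicate 1, 4, 5 or 8 or B3AR-Tg replicate 2, 5, 6 or 8 (edgeR adjusted p up to 0.0889). With the level of non-myocyte markers as a covariate the log2 fold change was 0.27 (edgeR adjusted p = 0.394), and the part of other cells in the difference was not tested otherwise.

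Nr1d1, which encodes REV-ERB alpha, was read at lower levels. Its lowest, median and highest levels were 8.21, 12.0 and 15.4 CPM in WT and 7.87, 13.2 and 23.7 CPM in B3AR-Tg. B3AR-Tg mice lay at both ends of the range, with replicate 4 the highest of all. The log2 fold change of 0.14 (standard error 0.19, 95% interval −0.26 to 0.54) did not pass (edgeR adjusted p = 0.742). Its sign turned to −0.02 without B3AR-Tg replicate 4. Nr1d1 shares 263 exonic bases with Thra, the thyroid hormone receptor alpha gene on the opposite strand. The library kit keeps strand, per the labels, but the strand setting of the counting was not given in the sources used here, so reads there cannot be assigned with certainty. Thra itself had a log2 fold change of 0.35 (edgeR adjusted p = 0.0360).

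Neither PAR bZIP gene passed. Dbp, an output gene driven directly by CLOCK and BMAL1, had lowest, median and highest levels of 26.0, 34.9 and 57.4 CPM in WT and of 28.9, 51.9 and 70.0 CPM in B3AR-Tg. Of the B3AR-Tg mice 6 were above the WT median and 3 above the highest WT mouse. Its log2 fold change was 0.40 (standard error 0.17, 95% interval 0.04 to 0.75), and it did not pass over all genes (edgeR adjusted p = 0.202). Dbp shares 539 exonic bases with Sphk2 on the opposite strand, a sphingosine kinase gene that held only 18 to 79 counts per library. Tef, the relative of Dbp with the E-box shown above, had lowest, median and highest levels of 70.2, 82.8 and 106.1 CPM in WT and 61.9, 97.2 and 104.2 CPM in B3AR-Tg. No B3AR-Tg mouse exceeded the highest WT mouse, and the log2 fold change was 0.10 (95% interval −0.13 to 0.32, edgeR adjusted p = 0.670).

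Among the repressors of CLOCK and BMAL1, no Per or Cry gene passed. Per3, the gene with the D-boxes, had lowest, median and highest levels of 5.50, 9.44 and 12.6 CPM in WT and 6.01, 11.8 and 19.7 CPM in B3AR-Tg, and 4 B3AR-Tg mice were above every WT mouse. Its log2 fold change of 0.44 (standard error 0.21, 95% interval 0.01 to 0.87) did not pass (edgeR adjusted p = 0.252). Per1, which is also induced acutely by cAMP and glucocorticoids, ranged from 4.71 to 10.5 CPM with a median of 7.20 in WT and from 3.97 to 12.0 CPM with a median of 7.72 in B3AR-Tg. The B3AR-Tg mice enclosed the WT range, with a log2 fold change of 0.10 (95% interval −0.32 to 0.51, edgeR adjusted p = 0.840). With the non-myocyte marker covariate it was 0.51 (edgeR adjusted p = 0.378). Per2 ranged from 2.09 to 9.26 CPM with a median of 6.60 in WT and from 3.25 to 7.90 CPM with a median of 5.84 in B3AR-Tg. Both ends of its range were WT mice, and the log2 fold change was −0.14 (95% interval −0.58 to 0.31, edgeR adjusted p = 0.780).

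The cryptochrome genes encode the strongest repressors of the loop. Cry1 ranged from 2.93 to 5.35 CPM with a median of 3.60 in WT and from 2.51 to 5.36 CPM with a median of 3.94 in B3AR-Tg, and the groups covered the same range. Its log2 fold change was −0.02 (95% interval −0.40 to 0.36, edgeR adjusted p = 0.972), and its sign turned in several alternatives. Cry2 ranged from 8.97 to 15.1 CPM with a median of 11.0 in WT and from 8.77 to 16.7 CPM with a median of 12.7 in B3AR-Tg. Of the B3AR-Tg mice 7 were above the WT median, yet the log2 fold change of 0.22 (95% interval −0.05 to 0.49) did not pass (edgeR adjusted p = 0.382).

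Clock, the activator among the members, was the steadiest. It ranged from 63.3 to 84.6 CPM with a median of 71.8 in WT and from 62.1 to 95.2 CPM with a median of 67.4 in B3AR-Tg, where the value of 95.2 CPM belonged to replicate 4 and the other 7 mice reached at most 71.7 CPM. Its log2 fold change was −0.04 (95% interval −0.23 to 0.14, edgeR adjusted p = 0.835). The interval excludes a change of the size fitted for Nr1d2.

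**Figure D2:**
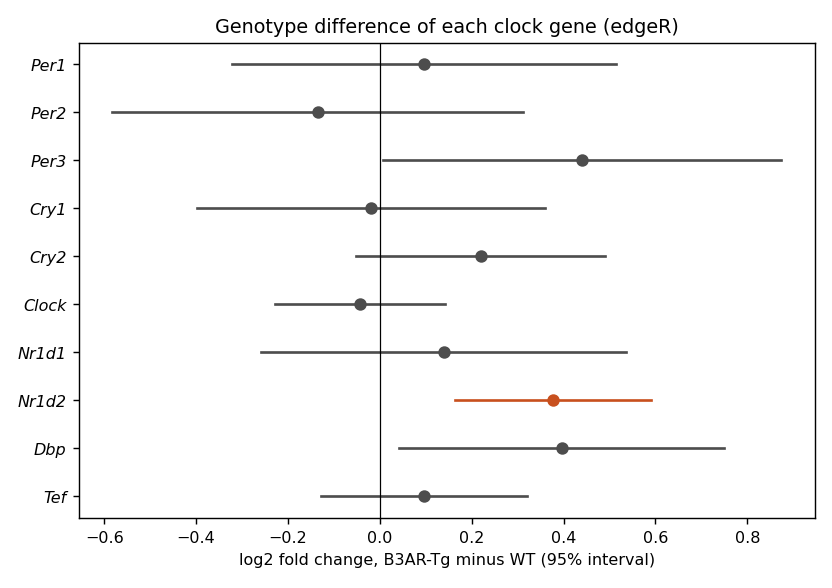
Log2 fold change of each clock gene, B3AR-Tg minus WT (horizontal axis), with its 95% interval from the edgeR fit over 16 mice. Nr1d2 (coloured, 0.38) is the one gene past the adjusted threshold; the intervals of Per3 and Dbp also lie above 0, before adjustment, and the other 7 cross 0.

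Levels of different genes were compared per kilobase of exon (exon lengths from GENCODE M21, matched by gene ID). In WT the order began with Nr1d2 at 20.3 ± 3.19 CPM per kilobase (SD, n = 8), followed by Dbp at 12.6 ± 3.29, Tef at 10.8 ± 1.63, Clock at 5.28 ± 0.544 and Nr1d1 at 3.87 ± 0.752. Dbp and Tef did not differ beyond their spread. Cry2 stood at 1.75 ± 0.303 CPM per kilobase, and Per1 (1.29 ± 0.344), Cry1 (1.17 ± 0.276), Per2 (1.10 ± 0.375) and Per3 (0.953 ± 0.258) could not be ordered within their spread. The Per and Cry repressors were the least abundant members, and the REV-ERB beta transcript the most abundant. In B3AR-Tg, Nr1d2 was at 26.3 ± 3.44 and Dbp at 16.5 ± 4.62 CPM per kilobase (SD, n = 8), again the highest and the next.

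The spread between mice of 1 genotype was wide beside the genotype differences, whose median size was 0.14 on the log2 scale. The SD of log2 CPM about the genotype mean had a median of 0.36 over the members and of 0.28 over all genes tested. Per2 (0.52, above 86.2% of tested genes), Per3 (0.48, above 82.5%), Per1 (0.44) and Nr1d1 (0.42) varied most. Clock (0.17) and Nr1d2 (0.22) varied least, Clock less than most tested genes. Per2 rested on 16 to 118 counts per library, Cry1 (SD 0.32) on 20 to 80 and Clock on 467 to 992, and the part of depth in this order was not tested. Arntl, the partner of Clock, varied more than any member, with an SD of 0.68 (above 94.4% of tested genes), at levels of 1.95 to 9.68 CPM in WT and 1.86 to 7.47 CPM in B3AR-Tg.

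Between animals Per3, Nr1d2, Dbp and Tef rose and fell together. After each genotype's mean was removed, 7 of the 45 pairs of members were correlated over the 16 mice at an adjusted p under 0.05 (permutation of mice within genotype, two-sided, adjusted over the 45 pairs). By rank correlation 6 pairs passed, and 5 passed both; the rank correlation alone passed for Cry2 with Clock, a pair named after its value was seen (rho = −0.68, permutation adjusted p = 0.0451, r = −0.50). The 7 comprised all 6 pairs among Per3, Nr1d2, Dbp and Tef, each positive, and the negative pair of Per2 and Clock. All 7 had the same sign within WT and within B3AR-Tg, but they were chosen by r over the same 16 mice, so this is no separate test. The smallest of them had an absolute r of 0.66, a value that 0.548% of the other tested genes reached in the positive direction with Dbp and 0.53% with Per3.

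**Figure D3:**
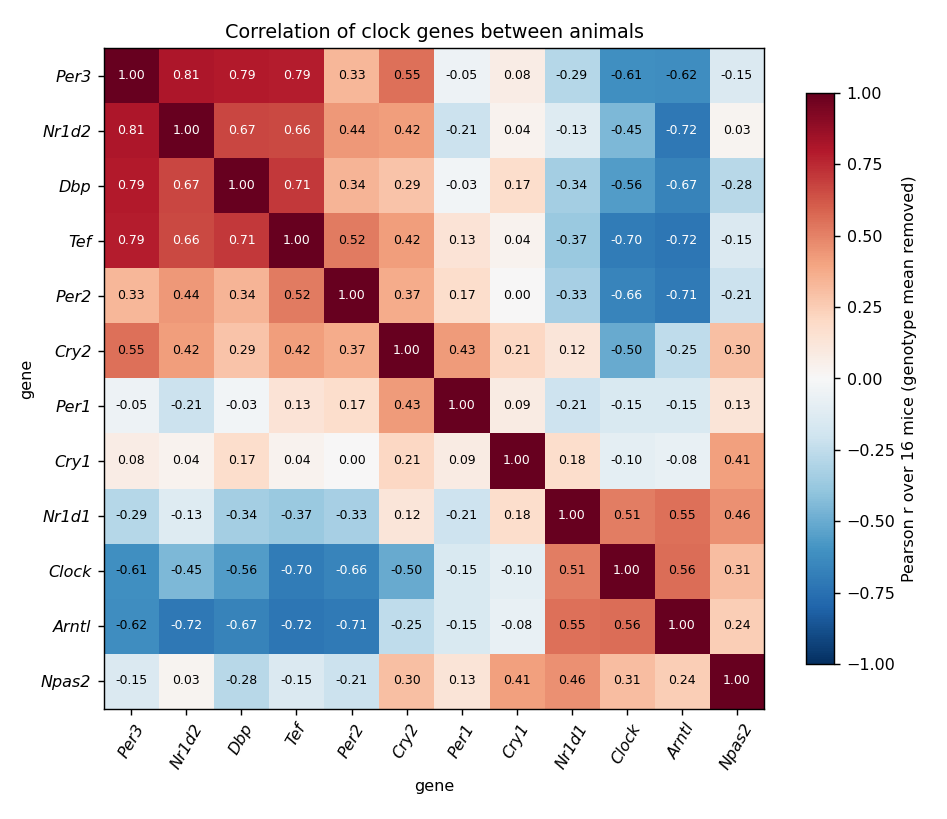
Pearson r between each pair of the 10 clock genes, Arntl and Npas2 over 16 mice, computed on log2 CPM less the genotype mean (both axes list genes, colour and printed number give r). Per3, Nr1d2, Dbp and Tef form a block of r between 0.66 and 0.81, and Clock and Arntl have negative values against the 4.

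Per3 and Nr1d2 were the closest pair, with r = 0.81 and rho = 0.76 (permutation p = 0.00024 and 0.00132, adjusted 0.0108 and 0.0445). Within WT the r was 0.80 and within B3AR-Tg 0.87. Per3 with Dbp gave r = 0.79 and rho = 0.70 (permutation p = 0.00079 and 0.00505, adjusted 0.0118 and 0.0451), and the WT mice alone gave 0.58 against 0.92 in B3AR-Tg, a difference that was not tested. Per3 with Tef gave r = 0.79 and rho = 0.71 (permutation p = 0.00063 and 0.00396, adjusted 0.0118 and 0.0445). Mice high in Per3 therefore tended to be high in Nr1d2, Dbp and Tef, but this did not hold for every mouse. WT replicate 3 had the most Per3 of its genotype (12.6 CPM), with Dbp at 33.7 CPM, below the WT median of 34.9 CPM.

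The remaining 3 pairs of the block were weaker. Dbp with Tef gave r = 0.71 and rho = 0.60 (permutation p = 0.00374 and 0.0190, adjusted 0.0410 and 0.0852). Nr1d2 with Dbp gave r = 0.67 and rho = 0.74 (permutation p = 0.00585 and 0.00212, adjusted 0.0426 and 0.0445), and Nr1d2 with Tef gave r = 0.66 and rho = 0.71 (permutation p = 0.00662 and 0.00395, adjusted 0.0426 and 0.0445). On leaving out the 2 mice farthest from the median of the first gene, these 3 values were 0.46, 0.64 and 0.64, and those of Per3 with Nr1d2, Dbp and Tef were 0.69, 0.72 and 0.69. Within WT, Dbp with Tef gave r = 0.46, Nr1d2 with Dbp 0.45 and Nr1d2 with Tef 0.59. Within B3AR-Tg the values in that order were 0.88, 0.93 and 0.77, a difference that was not tested. In the same order, the pairs were still called in 9, 7 and 5 of 16 removals of 1 mouse.

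Per2 with Clock gave r = −0.66 and rho = −0.61 (permutation p = 0.00456 and 0.0173, adjusted 0.0410 and 0.0852), and −0.50 without WT replicate 5 and B3AR-Tg replicate 4. Clock was also low where Tef and Per3 were high, with r = −0.70 and −0.61, but neither pair passed (permutation adjusted p = 0.0677 and 0.0925). Per1 and Cry1 passed with no other member, and their r values lay between −0.21 and 0.43. Nr1d1 did not follow its relative Nr1d2, with r = −0.13.

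Arntl moved against the block. Of the 20 correlations of the members with Arntl and Npas2, the 2 partners or substitutes of CLOCK at E-boxes, 5 passed, all negative and all with Arntl. They were Tef (r = −0.72, rho = −0.63), Nr1d2 (−0.72, −0.76), Per2 (−0.71, −0.51), Dbp (−0.67, −0.70) and Per3 (−0.62, −0.57), with adjusted p of 0.0195 for the first 4 values of r and 0.0447 for Per3 (permutation of mice within genotype, adjusted over the 20). Raw permutation p-values for r were 0.00338, 0.00285, 0.00355, 0.0039 and 0.0112 in that order. Raw p-values for rho were 0.0160, 0.00193, 0.0521, 0.00319 and 0.0275, of which Nr1d2 and Dbp passed after adjustment (permutation adjusted p = 0.0319 for both). For comparison, 0.247% of the other tested genes had an r of −0.66 or below with Arntl, a bound taken from the member pairs that Tef, Nr1d2, Per2 and Dbp reached and Per3 did not. On leaving out 1 mouse at a time, Per3 with Arntl was still called in 3 of 16 removals (permutation adjusted p up to 0.396). Each of the other 4 pairs was still called in 13 or 14.

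The 2 mice with the most Arntl were WT replicate 5 (9.68 CPM) and B3AR-Tg replicate 4 (7.47 CPM). Without both, r with Arntl was −0.74 for Nr1d2, −0.66 for Dbp, −0.65 for Per3 and −0.59 for Tef, but −0.28 for Per2, so that the relation of Per2 rests on those mice. Nr1d1, a repressor of Arntl, had a positive r of 0.55 with it (permutation adjusted p = 0.0631), which became 0.18 without these 2 mice. Npas2 held 2 to 20 counts per library, and 0 of its 10 correlations passed, with r between −0.28 and 0.46.

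**Figure D4:**
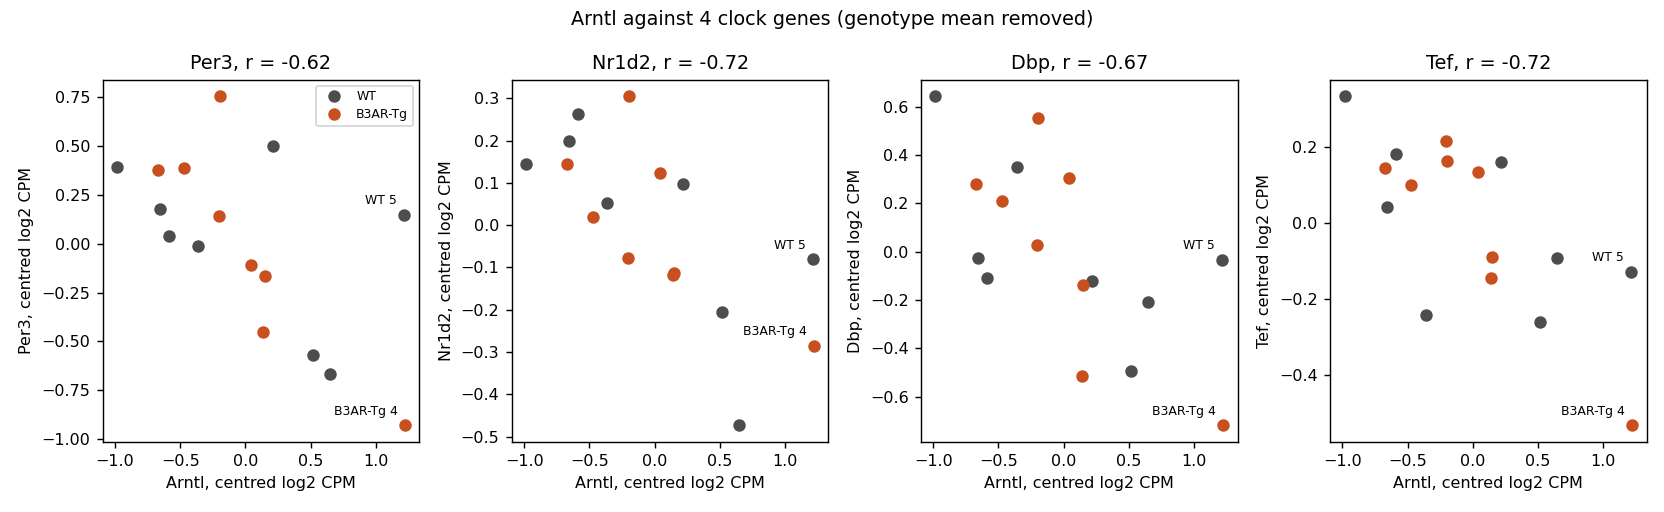
Arntl (horizontal axis) against Per3, Nr1d2, Dbp and Tef (vertical axes), each as log2 CPM less its genotype mean, 1 point per mouse. The 4 values of r lie between −0.72 and −0.62, and B3AR-Tg replicate 4 sits at the high Arntl end of each panel, with WT replicate 5 at nearly the same Arntl value but higher in all 4 genes.

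The pattern leaned on single libraries. B3AR-Tg replicate 4, the smallest library, had the highest Arntl and Clock of its genotype and the lowest Per2, Per3, Nr1d2, Dbp and Tef. Without it 0 of the 45 member pairs and 0 of the 20 pairs with Arntl or Npas2 passed, although r of the 6 pairs in the block stayed between 0.57 and 0.78 and r of the 5 pairs with Arntl between −0.66 and −0.47. Without WT replicate 2, the mouse with the second lowest Arntl of all and the highest WT Dbp and Tef, 0 of the 20 passed and 4 of the 45. The count over the 45 pairs was 3 or 4 on leaving out WT replicate 3 or 4 or B3AR-Tg replicate 1, 2, 5 or 6. WT replicates 4 and 8 lay on the other side of their genotype's mean from WT replicate 2, with Arntl at 5.89 and 6.48 CPM and the lowest WT levels of Per3 and Nr1d2.

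**Figure D5:**
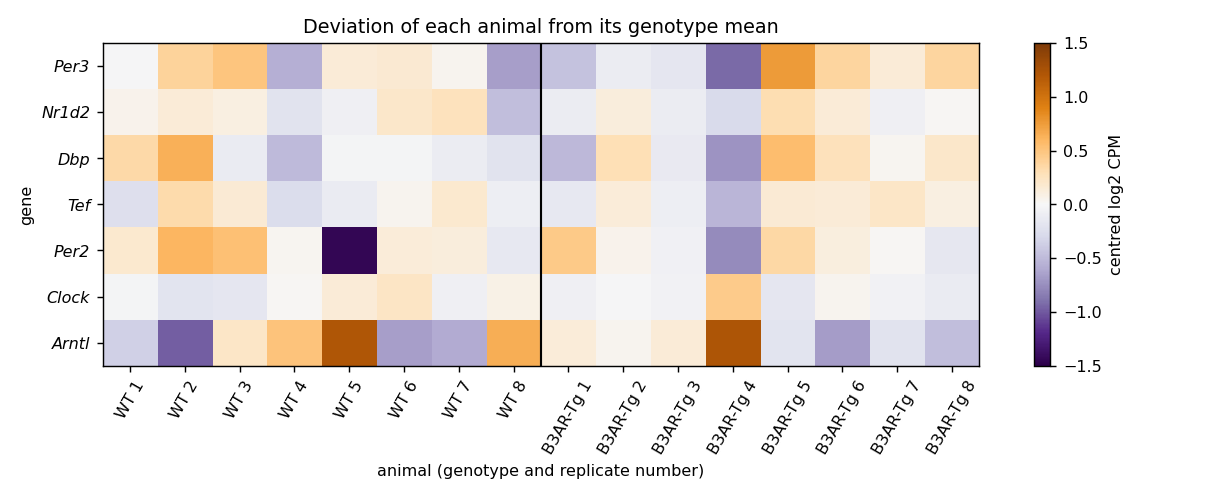
Deviation of each mouse from its genotype mean in log2 CPM (colour) for 7 clock genes (rows) in 16 mice (columns, labelled by genotype and replicate number, a vertical line between genotypes). B3AR-Tg replicate 4 shows low Per3, Nr1d2, Dbp, Tef and Per2 with high Clock and Arntl, and WT replicate 2 shows the reverse for these genes.

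Measures of the libraries followed the members less closely. Against the log2 library total, the non-myocyte marker score, the immediate early gene score and the glucocorticoid target score, 0 of 40 correlations passed (permutation adjusted over the 40), and 2 had a raw permutation p under 0.05 for r. These were Clock with the library total (r = −0.63, rho = −0.38, permutation p = 0.0327 and 0.159, adjusted 0.399 and 0.673) and Per3 with the glucocorticoid score (r = −0.56, rho = −0.57, permutation p = 0.0357 and 0.0261, adjusted 0.399 and 0.346). Without the 2 mice farthest in each measure, the values of r were −0.24 and −0.65. By rank correlation 5 had a raw permutation p under 0.05, the smallest being Per1 with the non-myocyte score (r = 0.52, rho = 0.69, permutation p = 0.0634 and 0.00607, adjusted 0.399 and 0.243). The others by rank were Per3 and Tef with the glucocorticoid score, Nr1d1 with the immediate early score and Per1 with the library total (permutation adjusted p = 0.346 for each rho). Time of day, for which the sources used here give no value, was not tested.

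The genes whose pattern was most like Dbp, by Pearson r over 16 mice on the same centred values, were Rnf135 (0.84), Pik3ip1 (0.83), Agk (0.83), Ttc30a2 (0.81) and Ficd (0.80). Per3 stood at rank 8 of 10944 other genes, Tef at 31 and Nr1d2 at 55. The most opposite were Rbbp8 (−0.83), Shb (−0.82), Cdr2 (−0.74), Pard6b (−0.73) and Phb (−0.72), with Arntl at rank 17 from the lowest. For Nr1d1 the most alike were Tiam1 (0.85), H6pd (0.83), Tmem201 (0.82), Anks1 (0.79) and Ubfd1 (0.79), and the most opposite Tbc1d23 (−0.83), Nsdhl (−0.80), Mcph1 (−0.79), Rilpl2 (−0.79) and Eogt (−0.78). The member nearest to Nr1d1 was Clock, at rank 360. These values are a description of 16 libraries and carry no test.

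The other genes of the pathway were read from fixed lists, of which 58 genes were tested, with 4 higher and 1 lower in B3AR-Tg. The shares over all genes tested were 2.03% higher and 2.88% lower, and no difference from that background was tested. Among the activators, neither Arntl nor Npas2 passed. Arntl had lowest, median and highest levels of 1.95, 3.93 and 9.68 CPM in WT and 1.86, 2.92 and 7.47 CPM in B3AR-Tg. Its fitted difference was −0.51 on the log2 scale (95% interval −1.17 to 0.16, edgeR adjusted p = 0.409). Npas2, which can replace CLOCK, stood at 1.36 ± 0.431 CPM (SD, n = 8) in WT and 0.989 ± 0.529 CPM (SD, n = 8) in B3AR-Tg. Its fitted difference was −0.45 on the log2 scale (95% interval −1.14 to 0.23, edgeR adjusted p = 0.479).

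Of 9 output and feedback genes 1 rose, Usp2, a clock-controlled deubiquitinase. Its lowest, median and highest levels were 26.9, 33.1 and 41.1 CPM in WT and 29.3, 49.6 and 60.3 CPM in B3AR-Tg, with 6 B3AR-Tg mice above every WT mouse. Its log2 fold change was 0.53 (95% interval 0.26 to 0.80, edgeR adjusted p = 0.0225; 0.0514 without B3AR-Tg replicate 5). Log2 fold changes of this list had a median of 0.23 and ran from −0.65 to 0.53. Among 15 kinases, ligases and cofactors that act on clock proteins 0 passed by edgeR, DESeq2 or limma voom, with 1 lower at an unadjusted edgeR p under 0.05, and their log2 fold changes stayed between −0.19 and 0.24.

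Of 12 heart genes known for daily rhythm 2 rose, both potassium channel genes. Kcnh2, whose channel carries the rapid delayed rectifier current, had lowest, median and highest levels of 14.3, 22.6 and 34.1 CPM in WT and 24.6, 34.1 and 47.6 CPM in B3AR-Tg mice, a fitted log2 difference of 0.60 (95% interval 0.26 to 0.94, edgeR adjusted p = 0.0369). Kcnd2, which encodes a channel of the transient outward current, had 11.9, 30.3 and 34.7 CPM in WT and 34.8, 39.4 and 43.6 CPM in B3AR-Tg, with groups that just failed to meet (log2 fold change 0.54, 95% interval 0.23 to 0.85, edgeR adjusted p = 0.0379). The median log2 fold change of the 12 was 0.30. The call of Kcnh2 was lost without WT replicate 1, 2, 4, 6 or 7 or B3AR-Tg replicate 2, 4, 5 or 8, and that of Kcnd2 without WT replicate 1 or 8 or B3AR-Tg replicate 2, 5, 6 or 8 (edgeR adjusted p up to 0.0879 and 0.0839).

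Glucocorticoid targets and immediate early genes were read from 2 further lists. Of 7 glucocorticoid targets 1 fell, Sgk1, a kinase of ion transport, whose lowest, median and highest levels were 15.6, 23.4 and 26.8 CPM in WT and 8.92, 14.3 and 24.9 CPM in B3AR-Tg mice, with a fitted log2 difference of −0.59 (edgeR adjusted p = 0.0384). That call was lost on leaving out any of 11 mice (edgeR adjusted p up to 0.0852), namely WT replicates 1, 2, 4, 6 and 7 and B3AR-Tg replicates 2, 3, 5, 6, 7 and 8. Log2 fold changes of the 7 targets had a median of −0.02 and ran from −1.33 to 0.15, with 3 above 0 and 4 below. Of 10 immediate early genes 1 rose, Nr4a1, a nuclear receptor induced by cAMP, with lowest, median and highest levels of 12.0, 20.6 and 24.6 CPM in WT and 20.4, 41.4 and 55.6 CPM in B3AR-Tg mice, with a fitted log2 difference of 0.93 (edgeR adjusted p = 0.0100). It passed in every alternative run. Log2 fold changes of the 10 immediate early genes had a median of 0.44 and ran from −0.14 to 0.93, with 8 above 0 and 2 below. At an unadjusted edgeR p under 0.05, 4 were higher and 0 lower, against 19.3% of all genes tested in either direction. The interval of Per1, −0.32 to 0.51, was given above, and a genotype difference in cAMP or glucocorticoid signalling was not tested.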

How the data were processed

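RNA of ventricular myocytes was sequenced after ribosomal RNA depletion with a stranded kit, per the labels' protocols, and the submitters' processing notes name Salmon and GRCm39 without their roles. The authors deposited whole-number counts per gene for 16 libraries, and the estimation or rounding behind those counts is not given in the sources used here. Groups were taken from the sample titles, 8 mice each. Genes were filtered (filterByExpr, minimum count 10, total 15), scaled by TMM and tested for genotype with edgeR 4.0.16 in R 4.3.3 (quasi-likelihood test, Benjamini-Hochberg adjustment over 10945 genes, threshold 0.05), with DESeq2 1.42.0 and limma 3.58.1 as alternatives. CPM were TMM-scaled, and log2 CPM used a prior count of 2. Standard errors are the fold change over the root of the F statistic.

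Correlations used log2 CPM less the genotype mean, with 100000 permutations of mice within genotype, adjusted within families of 45, 20 and 40. The members and lists were chosen with earlier results of these data known. Named genes were the members, Arntl, Npas2, up to 4 genes past the threshold per list, and the 5 highest and 5 lowest in r to Dbp and to Nr1d1. No 2 libraries of a genotype were near identical (chi-square per gene 5.82 to 52.8 over 56 pairs). The scripts were tested on simulated data. The count for the list of further activators is not reported here.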

Additional observations from a re-analysis of the deposited data

Results flagged for a closer look

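An animal stood apart from the other 7 of its genotype, by its gap to the nearest mouse over the whole range of log2(CPM + 0.1), in 5 of 34 groups searched, where chance gives about 1.7 (1 in 20). Each passed Dixon's critical value for 8 samples. Per2 in WT replicate 5 gave 0.634, at 2.09 CPM (16 counts) against 5.40 to 9.26 CPM in the others. Clock in B3AR-Tg replicate 4 gave 0.662, at 95.2 CPM against 62.1 to 71.7 CPM. Arntl in B3AR-Tg replicate 4 gave 0.561, at 7.47 CPM against 1.86 to 3.45 CPM. Kcnd2 in WT replicate 4 gave 0.596, at 11.9 CPM against 22.5 to 34.7 CPM. Nr4a1 in WT replicate 1 gave 0.551, at 12.0 CPM against 17.8 to 24.6 CPM.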

How the results depend on the processing

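Of 537 genes called, 230 were called with the replicate block and 25 with the non-myocyte marker covariate (272 to 675 on leaving out 1 mouse, 804 by DESeq2). The marker covariate largely goes with genotype, so fits with it cannot tell the effects of genotype and marker level apart. The count of clock genes called was 0 with the replicate block and 0 with the covariate (0 to 1 on leaving out 1 mouse). For the other lists it was 8 by limma voom, 3 with the block and 1 with the covariate (1 to 7). The log2 fold change of Nr1d2 was 0.38 with the block (edgeR adjusted p = 0.0687) and 0.27 with the covariate (0.394), and 0.32 to 0.42 without 1 mouse (0.0265 to 0.0889). The sign of Cry1 turned with library size only (0.0513), the covariate (0.13) and the animal number in the titles as covariate (0.0456), with −0.10 to 0.0678 without 1 mouse. Clock turned with library size only (0.0375) and Nr1d1 by limma voom (−0.0178), with −0.0168 to 0.23 without 1 mouse; Per1 ran from −0.0168 to 0.19. The log2 fold change of Per1 was 0.51 with the covariate (edgeR adjusted p = 0.378) and 0.24 by limma voom (0.504). The cause was not tested.

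Correlated member pairs numbered 12 with the replicate block and 0 to 9 without 1 mouse. With the block the residuals of same-numbered mice are equal and opposite. The permutation took them as separate mice, so p-values with the block are not valid and its calls do not test the pairs. Pairs with Arntl or Npas2 numbered 0 with library size only and 0 to 7 without 1 mouse. The 12 called values of r kept their sign in 60 of 60 alternatives and were still called in 50, and in 131 of 192 removals of 1 mouse. The 60 and the 50 include rows of the replicate block. Same-numbered mice did not deviate together (r −0.22 to 0.09, 0 of 8 closest to their own number), so the numbers were not taken as pairs. With the covariate the log2 fold change of Usp2 was 0.75 (edgeR adjusted p = 0.0709), the log2 fold change of Kcnh2 0.52 (0.301), the log2 fold change of Kcnd2 0.54 (0.233) and the log2 fold change of Sgk1 −0.22 (0.637). With the block Usp2 (0.0861), Kcnh2 (0.0534) and Sgk1 (0.0618) were not called, nor was Sgk1 with library size only (0.0857). Low counts limit Per2, Arntl and Npas2. Nothing in the labels shows more than 1 library per mouse. The title of WT replicate 2 alone has a suffix after its animal number, whose meaning is not given. The edgeR p-values set a genotype difference against variation between mice, and the permutation p-values set a correlation against reshuffled mice.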

Other observations

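Ciart, which encodes a repressor of CLOCK and BMAL1, was chosen after its values were seen. It held 6.54 ± 3.22 CPM (SD, n = 8) in WT and 6.20 ± 3.50 CPM (SD, n = 8) in B3AR-Tg. Its r over the 16 mice was 0.64 with Dbp, −0.51 with Arntl and −0.56 with Nr1d1, given with no test. Other output and feedback genes followed Dbp less closely, with r of 0.40 for Usp2, 0.25 for Hlf, 0.12 for Bhlhe41 and −0.49 for Nfil3. Fkbp5, a glucocorticoid target also chosen after its values were seen, stood at 11.2 ± 7.30 CPM (SD, n = 8) in WT and 4.32 ± 4.26 CPM (SD, n = 8) in B3AR-Tg, and did not pass (log2 fold change −1.33, edgeR adjusted p = 0.0747).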
